A study of Mus musculus with 6 samples.

Results

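Adipocyte genes were measured in mouse thyroid lobes after deletion of Foxe1, which encodes a forkhead protein of thyroid follicular cells. The set holds 10 genes chosen by name, of which 8 are typical of white fat (Adipoq, Lep, Retn, Cfd, Fabp4, Plin1, Plin4 and Cidec) and 2 of brown fat (Ucp1 and Cidea). Of these 10, 9 have a named probe set among 22206 on the array, and Cfd, the serine protease adipsin, was not analysed here. No member has more than 1 probe set, so each gene stands on a single value per array. The tissue was labelled thyroid and not fat, and Tg, the gene of thyroglobulin, read between 18.67 and 19.27 on all 6 arrays.

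There were 3 Cre controls and 3 Foxe1flox/flox/Cre animals, called knockouts here, all of C57BL/6J background. Animals of both groups carried Cre and received tamoxifen, at 0.05 g/kg intraperitoneally on 5 days in a row from an age of 6 to 8 weeks. The thyroid was harvested 2 weeks later, and RNA of 1 lobe per animal was put on 1 array. Neither the promoter that drives Cre nor the sex of the animals is stated in the labels. The comparison asks what loss of Foxe1 in the adult gland does to the transcripts of the lobe, here to those of fat cells. In whole lobes, fewer fat cells and less RNA of these genes per fat cell cannot be told apart.

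White adipocytes store triglyceride in a single large droplet coated by perilipins and by the protein of Cidec, and they secrete hormones such as adiponectin, leptin and, in the mouse, resistin. Brown adipocytes hold many small droplets and many mitochondria, where uncoupling protein 1, the product of Ucp1, turns the proton gradient into heat. Both kinds share the nuclear receptor PPAR gamma as their main driver and express Adipoq, Fabp4 and Plin1, so these genes mark fat cells in general rather than white fat alone. Fat, muscle, trachea and parathyroid surround the mouse thyroid, and brown fat depots lie in the neck.

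The values are RMA values on the log2 scale, so a difference of 1 is a change of 2-fold. Medians of the arrays ran from 5.62 to 5.69, and Pearson correlations between arrays over all probe sets ran from 0.97 to 0.99. Foxe1 itself stood at 7.28 ± 0.29 in controls, against 3.08 ± 0.23 in knockouts (limma adjusted p = 0.000442, n = 3 each, SD). Control 1 stood apart for the fat genes: it was the highest control for all 9 measured members, so each member's difference is also given without it. Control 1 and knockout 3 had almost no signal of the Y-linked genes Kdm5d, Eif2s3y and Uty (2.54 to 3.38), while the other 4 arrays read 5.70 to 9.55. Each group thus held 1 array of this kind.

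The sequences just before the start of 4 members are shown because these genes took different courses over the arrays: Ucp1 varied most, Lep was highest on the arrays that lack Y-linked signal, and Adipoq and Plin1 are general fat cell genes. Each is the 250 bases upstream of the RefSeq gene start in build GRCm38.p6, written 5′ to 3′ on the strand of the gene.

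Ucp1: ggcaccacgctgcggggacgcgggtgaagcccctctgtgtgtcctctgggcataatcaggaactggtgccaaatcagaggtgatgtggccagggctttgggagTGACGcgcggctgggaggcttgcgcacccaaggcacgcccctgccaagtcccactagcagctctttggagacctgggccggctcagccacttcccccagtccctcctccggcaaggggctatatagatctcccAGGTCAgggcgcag

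Lep: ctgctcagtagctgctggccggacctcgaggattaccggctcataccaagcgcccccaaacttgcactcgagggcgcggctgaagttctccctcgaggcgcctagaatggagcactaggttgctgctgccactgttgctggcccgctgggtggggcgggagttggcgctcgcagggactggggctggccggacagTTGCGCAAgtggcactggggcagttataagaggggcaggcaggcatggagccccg

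Adipoq: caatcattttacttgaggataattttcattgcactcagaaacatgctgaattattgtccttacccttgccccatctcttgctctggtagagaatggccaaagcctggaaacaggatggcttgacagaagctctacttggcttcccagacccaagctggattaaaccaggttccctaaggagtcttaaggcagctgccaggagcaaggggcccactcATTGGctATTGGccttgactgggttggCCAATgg

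Plin1: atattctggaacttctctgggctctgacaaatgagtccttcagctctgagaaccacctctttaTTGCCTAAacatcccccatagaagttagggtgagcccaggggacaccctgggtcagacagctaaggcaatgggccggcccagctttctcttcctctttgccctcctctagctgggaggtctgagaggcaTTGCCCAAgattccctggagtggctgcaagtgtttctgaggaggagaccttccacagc

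The windows lie at chr8:83290098-83290347 (plus strand, Ucp1), chr6:29059971-29060220 (plus strand, Lep), chr16:23146286-23146535 (plus strand, Adipoq) and chr7:79732777-79733026 (minus strand, Plin1). Capitals mark exact matches, on either strand, to 4 motifs: TTGCNNAA of the C/EBP factors, AGGTCA of nuclear receptors such as PPAR gamma, CCAAT, and TGACG, the core of the cyclic AMP response element. None of the marked matches overlaps a match to another of the motifs. The C/EBP motif stood in the windows of Lep and Plin1, with the Plin1 window holding 2 matches, and in 9.56% of all 32851 promoter windows of this length. The window of Ucp1 held AGGTCA, 14 to 9 bases before the start, and TGACG, 147 to 143 bases before it. These motifs were found in 14% and 17.8% of all windows. CCAAT was matched 3 times in the Adipoq window and at least once in 33.8% of all windows. Over all 9 windows of members, the C/EBP motif stood in 3, CCAAT in 2, and AGGTCA and TGACG in 1 each. The windows of Retn and Cfd, not shown, held none of the 4 motifs, so the windows shown are not typical of the set. RefSeq windows were used for 8 of the 10 members. There was none for Fabp4, and windows on the chromosome of Cidea were left out by a filter. Such matches describe letters and do not show binding.

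Neither the brown nor the white fat genes passed the test between the groups. At a Benjamini-Hochberg adjusted p of 0.05 over all probe sets, 0 of the 9 members were called by limma, where 0.338% of all 22206 probe sets were, and 0 of 9 reached an unadjusted p under 0.05, where 12.7% of all probe sets did (6.13% lower and 6.61% higher). All 9 members averaged lower in the knockouts, with differences between -1.91 and -0.13, while 53.2% of all probe sets had a negative difference and their median was -0.02. In none of the 9 did the 3 knockouts stand clear of the 3 controls, which 18.1% of all probe sets did. Without control 1, 7 of the 9 differences were negative and 2 positive.

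**Figure D1:**
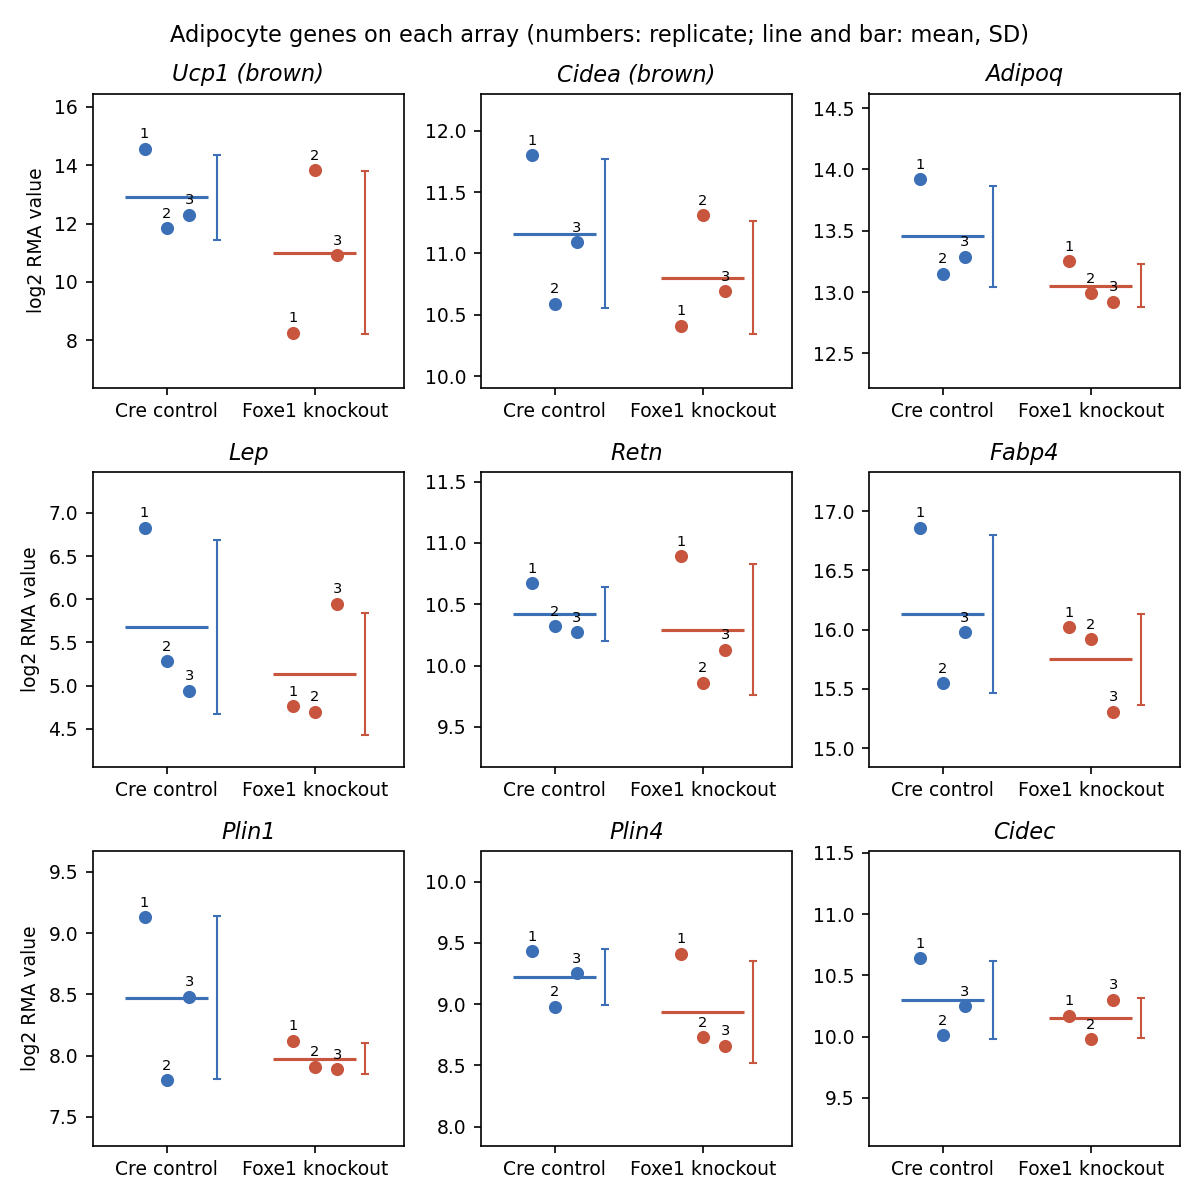
Log2 RMA value of each of the 9 measured adipocyte genes in 3 Cre controls (blue) and 3 Foxe1 knockouts (red), with replicate numbers, the group mean as a line and the SD as a bar. Each panel has its own vertical axis, which does not start at 0, and the groups overlap in every panel.

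Ucp1 was the member that varied most. It read 14.57, 11.84 and 12.31 in controls 1, 2 and 3 and 8.26, 13.83 and 10.91 in knockouts 1, 2 and 3. Knockout 1 was by far the lowest array and knockout 2 the second highest of all, so the groups overlapped widely. The means were 12.91 ± 1.46 and 11.00 ± 2.79 (SD, n = 3 each), a difference of -1.91 (SE 1.24, 95% confidence interval -4.73 to 0.91, limma adjusted p = 0.581). Between control 1 and knockout 1 the values spanned 6.31 on the log2 scale, a 79.3-fold range. The residual SD of Ucp1 within the groups, 2.22, was larger than that of 99.9% of all probe sets, against a median of 0.28. The difference was -1.08 without control 1, -0.54 without knockout 1 and -3.32 without knockout 2, with adjusted p of 0.25 or more.

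Cidea, which encodes a droplet protein that promotes lipid storage in brown and beige fat cells, ordered the arrays much as Ucp1 did but over a smaller range. It read 11.80, 10.59 and 11.09 in the controls, against 10.41, 11.31 and 10.69 in the knockouts. Control 1 was the highest array, knockout 2 the second highest and knockout 1 the lowest for both genes, while knockout 3 and control 2 changed places. The means were 11.16 ± 0.61 and 10.80 ± 0.46 (SD, n = 3 each), a difference of -0.36 (SE 0.34, 95% confidence interval -1.13 to 0.42, limma adjusted p = 0.731). Without control 1 the difference was -0.04. The whole range over 6 arrays was 1.39, a 2.62-fold difference.

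Among the hormones, Adipoq, the gene of adiponectin, was steady across the arrays apart from control 1. It read 13.92, 13.15 and 13.29 in the controls, against 13.25, 12.99 and 12.92 in the knockouts. Knockout 1 stood between controls 2 and 3, so the groups overlapped, but the other knockouts lay below every control. The difference was -0.40 (SE 0.24, 95% confidence interval -0.95 to 0.15, limma adjusted p = 0.542), and -0.17 without control 1.

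Lep, which encodes leptin, the hormone that reports fat stores to the brain, had the largest spread of the white fat genes. It read 6.83, 5.28 and 4.94 in the controls, against 4.76, 4.70 and 5.95 in the knockouts. The 2 highest arrays were control 1 and knockout 3, the same 2 that lacked Y-linked signal, and the other 4 arrays lay between 4.70 and 5.28. Control 1 exceeded the mean of the other controls by 1.72, and knockout 3 that of the other knockouts by 1.22. Lep was also the dimmest member, between the 41.6th and 59.6th percentile of its arrays, where RMA values compress differences. The group difference was -0.55 (SE 0.51, 95% confidence interval -1.70 to 0.61, limma adjusted p = 0.721). Without control 1 it was 0.027, and among the 4 arrays with Y-linked signal it was -0.38.

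Cidec was the only other member for which the arrays without Y-linked signal, at 10.30 and 10.64, lay clear of the remaining arrays, at 9.98 to 10.25. That gap is small, and this split of the arrays was looked at after the values were seen and was not tested. How many of all probe sets split the arrays in this way was not counted, so the split of Lep and Cidec has no background share beside it. For Ucp1, Adipoq, Plin1 and Fabp4 control 1 was the highest of all arrays, but knockout 3 was below the mean of the other knockouts.

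Retn, the gene of resistin, read 10.67, 10.32 and 10.27 in the controls, against 10.89, 9.86 and 10.13 in the knockouts, and was the only member whose highest array was not control 1. Knockout 1, the lowest array for both brown fat genes, was the highest for Retn. The difference was -0.13 (SE 0.28, 95% confidence interval -0.76 to 0.51, limma adjusted p = 0.902). It was -0.002 without control 1 and 0.09 without knockout 2.

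Fabp4, a fatty acid carrier of adipocytes that endothelial cells and macrophages also express, was bright on every array. It read 16.86, 15.55 and 15.98 in the controls, against 16.02, 15.92 and 15.31 in the knockouts, at the 98.6th percentile of its array or higher. Only control 1 lay above the rest, and knockout 3 was the lowest. The difference was -0.38 (SE 0.34, 95% confidence interval -1.16 to 0.40, limma adjusted p = 0.712) and -0.015 without control 1. Of 9 measured endothelial genes, which include Pecam1, Cdh5 and Kdr, 8 were lowest in knockout 3 as well, and their mean level lay between 8.38 and 8.62 in the controls, against between 7.52 and 8.76 in the knockouts. How many of all probe sets were lowest in knockout 3 was not counted. The part of endothelial RNA in the Fabp4 values was not tested.

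Plin1, the perilipin that guards the droplet of fat cells against lipases, read 9.13, 7.80 and 8.48 in the controls, against 8.12, 7.91 and 7.89 in the knockouts. The knockouts lay within 0.23 of each other, and the controls spread over 1.33 on both sides of them. Its difference was -0.50 (SE 0.31, 95% confidence interval -1.21 to 0.21, limma adjusted p = 0.564), and -0.17 without control 1.

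Plin4, a perilipin that coats small, new droplets, read 9.43, 8.98 and 9.25 in the controls, against 9.41, 8.73 and 8.66 in the knockouts. Knockout 1 lay just below control 1, while the other knockouts lay below every control. The difference was -0.29 (SE 0.25, 95% confidence interval -0.85 to 0.28, limma adjusted p = 0.696), and -0.18 without control 1. Cidec, which fuses droplets in white fat cells, read 10.64, 10.01 and 10.25 in the controls, against 10.17, 9.98 and 10.30 in the knockouts, within 0.66 over all arrays. Its difference was -0.15 (SE 0.22, 95% confidence interval -0.64 to 0.34, limma adjusted p = 0.832), and 0.02 without control 1.

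**Figure D2:**
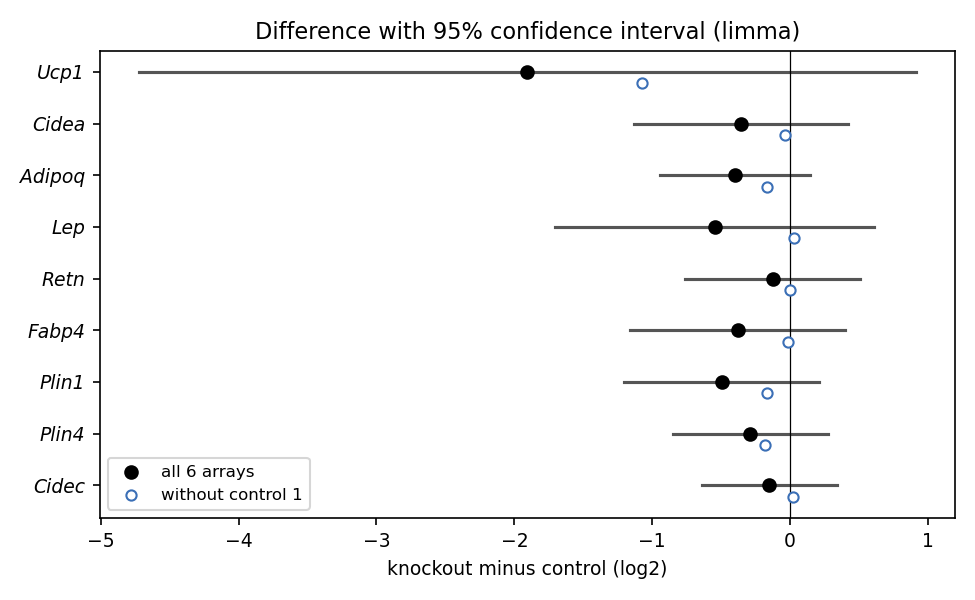
Difference between knockouts and controls on the log2 scale for the 9 measured genes, as points with the 95% confidence interval of the limma fit (3 arrays per group), and the difference without control 1 as open circles. Every interval spans 0, the interval of Ucp1 is the widest at -4.73 to 0.91, and the open circles of the 7 white fat genes lie between -0.18 and 0.03.

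What the genes shared was a high value on control 1. That array was the highest of the 6 arrays for 8 of the 9 members, where this held for 20.3% of all probe sets, and the highest control for all 9, where this held for 35.1%. The 7 white fat genes had a median difference of -0.38, which became -0.015 without control 1. Leaving out any other array gave medians between -0.55 and -0.23.

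Ucp1 and Cidea parted from the 7 genes of the white fat list on knockouts 1 and 2. Of these 7, Adipoq, Fabp4 and Plin1 mark fat cells in general, so their mean does not stand for white fat alone. Levels of different probe sets cannot be set against each other, so each gene was taken as its deviation from its own control mean. The mean deviation of the 7 white fat genes was 0.54, -0.37 and -0.17 in controls 1, 2 and 3 and -0.15, -0.51 and -0.36 in knockouts 1, 2 and 3. That of Ucp1 and Cidea was 1.15, -0.82 and -0.33 in the controls, against -2.70, 0.54 and -1.23 in the knockouts. Both means thus gave the same order among the controls, with control 1 highest and control 2 lowest. Knockout 1 was above knockout 2 in the white mean and below it in the brown mean. The place of knockout 3 in the white mean rested on Lep: without Lep the means were -0.022, -0.434 and -0.464 in knockouts 1, 2 and 3, and the medians of all 7 genes were -0.13, -0.49 and -0.53, with knockout 3 the lowest in both. Among the knockouts, 4 of the 7 genes (Adipoq, Plin1, Plin4 and Fabp4) were lowest on knockout 3.

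The brown minus white deviation put this in 1 value per array. It was 0.61, -0.45 and -0.16 in the controls, against -2.55, 1.05 and -0.87 in the knockouts, so the knockouts lay on both sides of all controls. The group difference of this value was -0.79, smaller than its SD among the knockouts, 1.80, and it was 0.09 without knockout 1. Of the 7 white fat genes 0 were higher on knockout 2 than on knockout 1, against 2 of 2 brown ones and 49.1% of all probe sets. For Lep the gap was small, 4.70 on knockout 2 against 4.76 on knockout 1. This order was not particular to white fat: 0 of 9 macrophage and 1 of 9 endothelial genes were higher on knockout 2. Elsewhere outside fat the count reached 8 of 14 respiratory chain and 3 of 4 parathyroid and neuroendocrine genes. Much of the size of the brown minus white value came from Ucp1, whose deviation on knockout 1 was -4.65, where that of Cidea was -0.75.

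**Figure D3:**
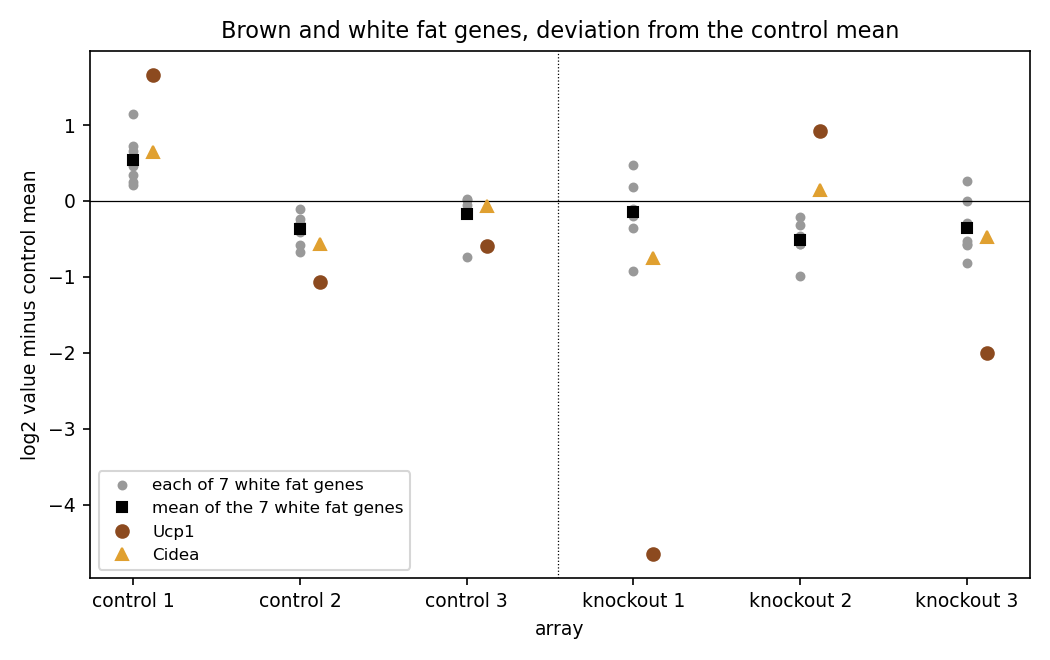
Deviation of each gene from its own control mean (log2) on the 6 arrays, for the 7 white fat genes (grey, with their mean as black squares), Ucp1 (brown circles) and Cidea (yellow triangles). White fat genes stay within 1.15 of their control means throughout, while Ucp1 lies at -4.65 on knockout 1 and at 0.92 on knockout 2.

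Of 25 measured genes on the list of the brown fat programme 19 were higher on knockout 2 than on knockout 1, where 49.1% of all probe sets were. So were 11 of 14 genes of triglyceride synthesis, 8 of 12 other secreted products, 6 of 9 adipogenic factors and 6 of 9 other droplet proteins. The remaining fat lists went the other way, with 3 of 8 lipolysis genes, 2 of 8 of fatty acid uptake, 2 of 7 receptors and 0 of 7 preadipocyte genes. Over all 9 lists of further fat genes it was 57 of 99. Chosen after the values were seen, Otop1, a proton channel gene of brown fat, read 7.92, 6.66 and 8.38 in the controls, against 6.36, 7.32 and 6.74 in the knockouts. Letmd1, a mitochondrial gene needed for heat production, read 11.00, 9.56 and 10.03 and then 9.32, 9.98 and 9.54. Elovl3, a fatty acid elongase of brown fat, read low, at 5.78, 4.36 and 3.97 and then 3.88, 4.66 and 3.55, where the lower quartile of the arrays was 3.49 to 3.60. For each of the 3, knockout 2 was the highest knockout, but none spanned a range close to that of Ucp1. Other genes of the list went another way: Acot11 was highest among the knockouts on knockout 3, and Cox8b and Cpt1b on knockout 1. How many of the 25 had knockout 2 as the highest knockout was not counted. Pparg, the gene of PPAR gamma, also had control 1 highest at 10.23 and knockout 2 second at 9.41, with the other arrays between 8.58 and 8.85. The coactivator gene Ppargc1a read between 10.55 and 11.35, with 10.91, 10.90 and 10.55 in knockouts 1, 2 and 3. Prdm16, a regulator of brown fat identity, read between 4.58 and 5.28 and was highest on knockout 3.

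In the brown fat list 20 of 25 genes had a negative difference (median -0.21), and none passed over all probe sets. At an unadjusted p under 0.05 there were 5 lower and 1 higher. The 5 were the respiratory chain subunit genes Cox7a1 (-1.03) and Cox8b (-0.95), the thioesterase gene Acot11 (-0.95), the droplet gene Plin5 (-0.89) and Cpt1b (-0.75), the fatty acid gate of mitochondria, with adjusted p of 0.111 or more. Slc6a8, the creatine transporter, was 0.69 higher (adjusted p = 0.22). Cox7a1, Cox8b and Cpt1b are muscle genes as well. All 15 skeletal muscle genes averaged lower in the knockouts (median -0.61) and were lowest in knockout 3, with mean levels of 16.69 to 16.86 in the controls, against 15.49 to 16.42 in the knockouts. The share of all probe sets that were lowest in knockout 3 was not counted. The part of muscle RNA in the values of Cox7a1, Cox8b and Cpt1b was not tested.

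Over the 9 lists of further fat genes, 75 of 99 measured genes (75.8%) had negative differences, against 53.2% of all probe sets. Their median was -0.30, and 0 passed at an adjusted p of 0.05. An unadjusted p under 0.05 was reached by 24 of them (24.2%), 20 lower and 4 higher, against 12.7% of all probe sets, 6.13% lower and 6.61% higher. That share was not particular to fat: in the lists outside fat it ran from 22.2% (endothelial genes) to 77.8% (airway genes), with 40% for skeletal muscle. Of the 99 genes 44 were lowest on knockout 3, as were all 15 skeletal muscle genes. How many of all probe sets were lowest on knockout 3 was not counted, so these counts have no background share. Control 1 was the highest array for 34 of the 99, against 20.3% of all probe sets.

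Triglyceride synthesis had 11 of 14 genes negative (median -0.67). Slc2a4, the insulin-regulated glucose transporter of fat and muscle, differed by -1.0 (10.70 ± 0.34 against 9.71 ± 0.68, SD, n = 3 each, limma adjusted p = 0.262), and the phosphatidate phosphatase gene Lpin1 by -0.92 (adjusted p = 0.211). Dgat2, which makes triglyceride, was 0.43 higher (adjusted p = 0.468). Control 1 was the highest array for 10 of these 14.

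Fatty acid uptake held the smallest adjusted p of the 99 genes, for a gene that was higher in the knockouts. Fabp5, the fatty acid carrier of epithelia, read 13.28, 13.90 and 13.77 in the controls, against 14.89, 15.15 and 15.91 in the knockouts, all above every control. Its difference was 1.67 (SE 0.29, 95% confidence interval 1.0 to 2.34, limma adjusted p = 0.0665), which missed the threshold, while Fabp4 lay at -0.38. The fatty acid transporter Slc27a4 was 1.06 higher (adjusted p = 0.299). Vldlr differed by -0.60 (adjusted p = 0.348) and the fatty acid receptor Cd36 by -0.66 (adjusted p = 0.418). Both Fabp5 and Slc27a4 are abundant in squamous epithelium, whose list of 11 measured genes had 8 positive differences, among them Sprr3 (1.15) and Dsc3 (1.10), beside Krt17 (-1.89), with mean levels of 14 to 14.28 in the controls, against 13.98 to 14.70 in the knockouts. The mean deviation of that list was -0.05, -0.16 and 0.57 in knockouts 1, 2 and 3. Its genes differed: 4 of the 11, Sprr3 and Dsc3 among them, lay above every control in all knockouts, as Fabp5 did. Krt17 lay below every control in all knockouts. Over all probe sets, 18.1% had groups without overlap, in either direction. The part of squamous epithelium in the values of Fabp5 was not tested.

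Droplet proteins outside the set had 6 of 9 negative differences (median -0.49). Plin2, the perilipin of most cell types, read 11.16, 11.25 and 11.50 in the controls, against 10.69, 10.66 and 10.73 in the knockouts. The groups did not overlap, and the difference was -0.61 (SE 0.18, limma adjusted p = 0.195). Fitm1 differed by -0.97 and was lowest on knockout 3, as were all 15 skeletal muscle genes. The part of muscle RNA in its values was not tested. Fitm2 differed by -0.63 and Cavin1, of the caveolar coat, by -0.60. The limma adjusted p of Fitm1, Fitm2 and Cavin1 was 0.182 or more, and Bscl2 was 0.23 higher. In lipolysis 5 of 8 were negative: Pde3b, the phosphodiesterase through which insulin restrains lipolysis, differed by -0.80 and the monoglyceride lipase gene Mgll by 0.59, with adjusted p of 0.297 or more.

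Other secreted products of fat had 10 of 12 negative differences (median -0.49). Rbp4, the retinol carrier of liver and fat, read 9.66, 7.76 and 8.56 in the controls, against 6.83, 7.30 and 7.69 in the knockouts, a difference of -1.39 (adjusted p = 0.228). The acute phase genes Hp and Orm1 differed by -1.35 and -0.71, and the lectin gene Itln1 by -1.0, with adjusted p of 0.127 or more, while Apln was 0.28 higher. Among receptors and signalling genes 6 of 7 were negative (median -0.28), with Irs1 at -0.60, Insr at -0.41 and Adipor1 at 0.03. Adipogenic transcription factors had 6 of 9 negative (median -0.27), from Ebf2 at -0.67 to Cebpb at 0.26. Of 7 preadipocyte genes 6 were negative (median -0.30), from Pi16 at -0.93 (adjusted p = 0.358) to Icam1 at 0.34, and 0 of the 7 had control 1 as the highest array.

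**Figure D4:**
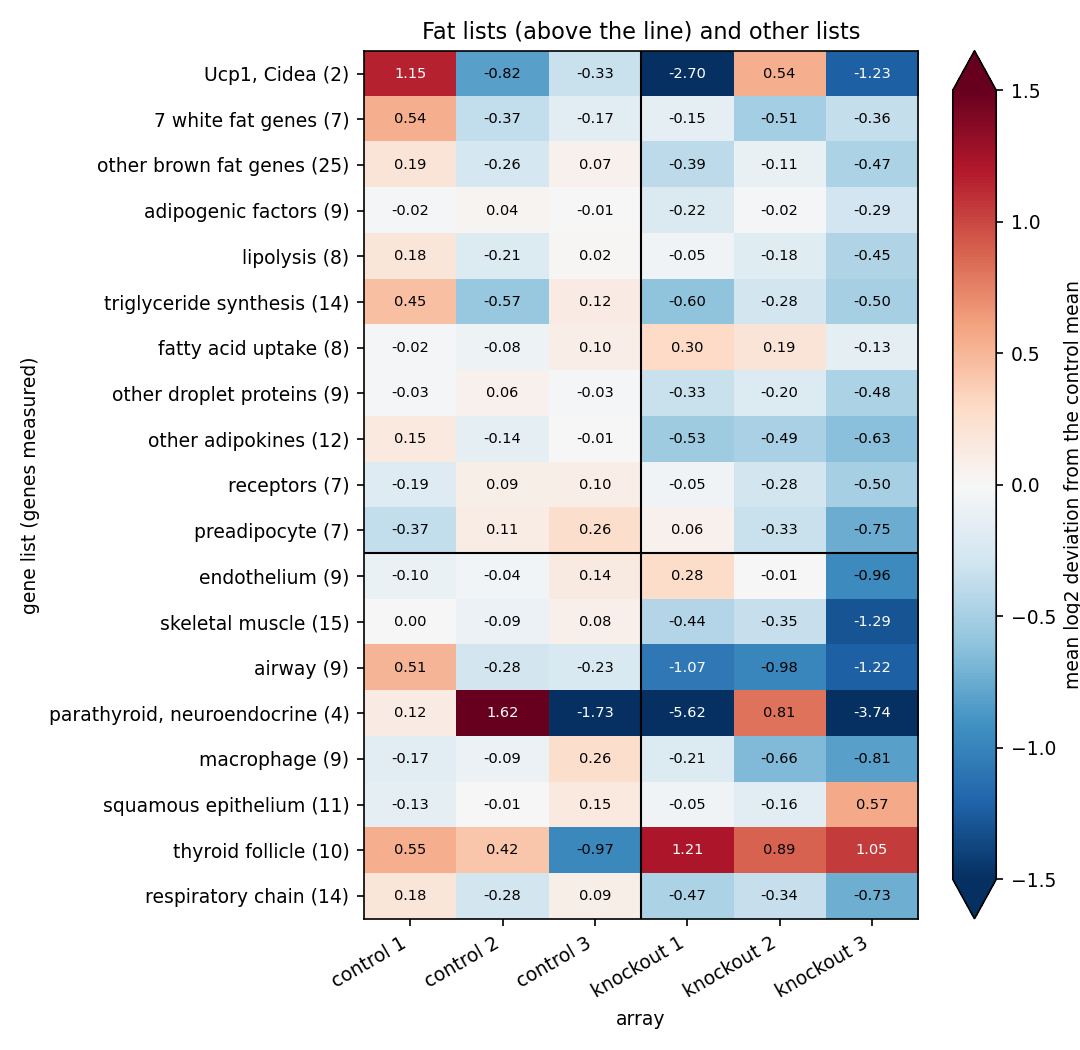
Mean deviation from the control mean (log2) of each gene list on each of the 6 arrays, with the number of measured genes in brackets. Colour is capped at 1.5 in either direction, and lists above the black line are fat lists. Control 1 is above the control mean for Ucp1 and Cidea (1.15), white fat genes (0.54), triglyceride synthesis (0.45), airway genes (0.51) and thyroid follicle genes (0.55), and below it for preadipocyte genes (-0.37).

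Airway, respiratory chain and macrophage genes also averaged lower in the knockouts, and most of the airway and respiratory chain genes were highest on control 1. Of 9 airway genes, which include Bpifa1 and Muc5b, 9 averaged lower in the knockouts (median -1.17), led by Muc5b (-1.48), Dnah5 (-1.39) and Reg3g (-1.39). Their mean level was 14.96 to 15.75 in the controls, against 14.02 to 14.26 in the knockouts, with control 1 the highest of all arrays for 7 of the 9. Respiratory chain genes were negative in 14 of 14 (median -0.58), with Sdha, Cox5b and Ndufa9 between -0.76 and -0.70, and control 1 highest for 11. Macrophage genes were negative in 9 of 9 (median -0.43), with Itgam at -1.12, Cd14 at -1.08 and Lyz2 at -0.64. Control 1 was the highest array for 2 of the 9 macrophage genes, near the share of 20.3% over all probe sets. Their mean deviation on control 1 was -0.17. The part of airway and macrophage RNA in the fat gene values was not tested.

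Of the 4 measured parathyroid and neuroendocrine genes, Pth, Casr and Chga were lowest on knockout 1, as Ucp1 was, while Scg5 was highest there, at 12.61. Pth, the gene of parathyroid hormone, read 18.24, 19.68 and 17.02 in the controls, against 3.56, 18.61 and 10.06 in the knockouts. As for Ucp1, knockout 2 was the highest knockout, knockout 3 the next and knockout 1 the lowest, but control 2 was the highest control for Pth and the lowest for Ucp1. The mean level of the 4 measured genes of that list was 11.50 to 14.85 in the controls, against 7.62 to 14.04 in the knockouts. Chga, of secretory granules, was at 5.85, 15.16 and 6.95 in the knockouts, while Scg5 was 4.36 higher in the knockouts (limma adjusted p = 0.0269). In the follicular list 9 of 10 genes were positive (median 1.19), and the largest differences were those of Slc5a5 (4.83), Foxe1 (-4.19) and Hhex (2.46). Endothelial genes differed by a median of -0.14, and the largest differences there were those of Cldn5 (-1.04), Ramp2 (-0.85) and Tie1 (-0.73). Whether the amount of parathyroid or of fat taken with each lobe moved the value of Ucp1 was not tested.

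Outside the 9 members, the probe sets whose values followed those of the fat genes most closely over the 6 arrays were picked by correlation, as a description. Among 5209 named probe sets with a mean of at least 6 and an SD of at least 0.3, the 10 most correlated with the mean deviation of the white fat genes had Pearson r between 0.96 and 0.99 over 6 arrays. They were Cfap43, Cfap52, Adgb, Mrpl24, Slc23a2, Vmn1r117, Myl6, Micos13, Cyld and Tst. Cfap43 and Cfap52 are genes of motile cilia, and Cfap43 read 10.39, 8.52 and 8.85 in the controls, against 8.74, 8.30 and 8.55 in the knockouts. For the mean of Ucp1 and Cidea the 10 nearest were Cfap300, Hacl1, Atp5d, Necap1, Naa40, Grb14, Igsf8, Dnajc15, Dbt and Etfbkmt (r between 0.92 and 0.98). Atp5d, of the ATP synthase, read 15.13, 14.82 and 14.70 in the controls, against 14.21, 14.91 and 14.55 in the knockouts. With 6 arrays that share their lobes with every other tissue, these values describe likeness only.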

How the data were processed

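Values deposited by the authors are on the log2 scale, 1 per probe set. The submitters' processing notes name RMA and Affymetrix Expression Console, without version, settings or genome build. RMA equalises the arrays and compresses differences near background, and no detection calls were used. Array number, 3 per group, limits precision.

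Of 22206 probe sets 19572 were named by the platform's annotation, updated through gene identifiers to RefSeq (GRCm38.p6). A gene with several probe sets was to be taken at its brightest. All probe sets were tested as deposited with limma 3.58.1 in R 4.3.3 (lmFit, eBayes), as a two-sided test, p-values adjusted over all of them by Benjamini-Hochberg, and a threshold of 0.05. The fit was tested on simulated data. Differences are knockout minus control. Python 3.11.15 and matplotlib 3.10.9 served for tables and figures.

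The members, the 17 further gene lists and the tests were chosen with earlier results of these data known. Named were all members, the genes of each further fat list with an unadjusted p under 0.05 and its largest rise and fall, the 3 largest differences of every other list, and the 10 probe sets nearest to each pattern. Genes named outside this rule are Tg, Pparg, Ppargc1a, Prdm16, Otop1, Letmd1, Elovl3, the Y-linked genes, and Pecam1, Cdh5, Kdr, Bpifa1 and Casr as list members. Same-numbered arrays did not pair (correlations of deviations -0.01, 0.08 and 0.02), so no block was used.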

Additional observations from a re-analysis of the deposited data

How the results depend on the processing

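Over 16 other settings 0 of the 9 members were called in any, and 137 of 143 member differences kept their sign. Many of these signs could not change. Limma-trend, robust limma-trend, the level filter, the use of named probe sets alone and the replicate block leave each difference as it is by construction. The share that kept its sign is thus no measure of stability, and all exceptions came from settings that left out arrays. The exceptions were Lep (0.027) and Cidec (0.02) without control 1, Retn without knockout 2 (0.09), and, without the 2 arrays lacking Y-linked signal, Fabp4 (0.205), Retn (0.08) and Cidea (0.02). Leaving out 1 array in turn gave -0.95 to 0.027 for Lep, -0.29 to 0.02 for Cidec and -0.42 to 0.09 for Retn. The white fat median ran from -0.55 to -0.015 when 1 array was left out, lowest in size without control 1. The brown mean ran from -1.97 to -0.35 and the brown minus white difference from -1.71 to 0.09. The count of all probe sets called, 75, was 118 with robust limma-trend, 6 without the 2 arrays lacking Y-linked signal, and 2 to 43 when 1 array was left out. With the replicate number as a block the white median was -0.38 and Ucp1 -1.91 (adjusted p = 0.623), and the block changed no member's call. Using the Y-linked signal as a covariate left the differences as they were, since each group holds 1 such array. The 2 settings on Y-linked signal were added after seeing the data. The mean of several probe sets was not run, since no member has more than 1, and Lep was left out by the filter for probe sets above the median level. The number of arrays, 3 per group, limits what can be detected, and Lep alone is dim enough for background to limit its differences.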
